A study of Mus musculus with 27 samples.

Results

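The introns of Htr2c, the gene for the serotonin 2C receptor on the mouse X chromosome, hold a group of microRNA hairpins, and the mature miRNAs cut from them were followed through 27 small-RNA libraries from mouse brain. Members were taken by name: every listed mature miRNA whose name begins with miR-1264, miR-1298, miR-448, miR-764, miR-1911 or miR-1912. This gave 9 of the 844 miRNAs listed in the series, namely both arms of miR-1264, miR-1298, miR-448 and miR-764, and miR-1912-3p. miR-1911 was not listed in any library.

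The libraries came from C57BL/6 mice. Tissue libraries were made from suprachiasmatic nucleus (SCN, a small hypothalamic nucleus that keeps circadian time, 2 libraries), from hypothalamus (2) and from cortex (2). A time course of the SCN spanned ZT2 to ZT42 (zeitgeber time, in hours) with 11 libraries 4 h apart, 1 per time. Neurons of 3 SCN types, AVP (vasopressin), VIP (vasoactive intestinal peptide) and CCK (cholecystokinin), were sequenced in 2 libraries per type, and SCN taken at CT18 (circadian time 18 h) gave 2 libraries labelled LP and 2 labelled CTRL. The labels do not spell out LP, do not say how the neurons were collected or give a genotype for them, and do not say whether replicates are separate animals. The p-values below therefore measure only the spread between these libraries, which may be technical.

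The serotonin 2C receptor is a G-protein-coupled receptor with high mRNA levels in the choroid plexus and in parts of the hypothalamus. An intronic miRNA can be cut from the same primary transcript as its host mRNA, so host and miRNA can share a promoter, although each hairpin is then processed, and each arm retained or lost, on its own. A mature miRNA finds its targets mainly through its seed, the bases 2 to 8 from its 5′ end, and loading into Argonaute usually favours 1 arm of the hairpin over the other.

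In the GENCODE M21 annotation of GRCm38, the genome build of the deposited data, Htr2c ran from 146962513 to 147197277 on the plus strand of chromosome X, 234.8 kb in length. All 6 hairpins lay on the same strand as the gene, between exons of its transcript Htr2c-201, which has 6 exons. Intron 2 of that transcript, 90779 bases long, held Mir764 (147002259 to 147002366), Mir1912 (147009441 to 147009527), Mir1264 (147010601 to 147010686) and Mir1298 (147064905 to 147065002). Intron 4, 93522 bases long, held Gm24627, the annotated gene at the miR-1911 position (147106939 to 147107076), and Mir448 (147158210 to 147158321). The hairpins were not tightly packed: Mir1912 and Mir1264 were 1.1 kb apart, Mir764 lay 7.1 kb before Mir1912, and the other 3 gaps were 54.2, 41.9 and 51.1 kb.

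RefSeq (GRCm38.p6) gave mature sequences for 8 of the 9 members. They are shown because the names alone hide how different the products are; capitals mark the seed.
miR-1264-3p: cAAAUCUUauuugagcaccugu
miR-1298-3p: cAUCUGGGcaacugauugaacu
miR-1298-5p: uUCAUUCGgcuguccagaugua
miR-448-3p: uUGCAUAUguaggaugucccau
miR-448-5p: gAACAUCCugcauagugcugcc
miR-764-3p: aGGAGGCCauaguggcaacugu
miR-764-5p: gGUGCUCAcauguccuccu
miR-1912-3p: cACAGAACaugcagugagaacu

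All 8 seeds differed from each other, and none was shared with any other of the 690 listed miRNAs (81.8% of those listed) that had a RefSeq mature sequence. The group is thus related by position and not by seed. The nearest relative was the brain miRNA miR-153-3p, which carries bases 2 to 7 of miR-448-3p and differs at base 8, as the pair below shows with the seed in capitals.
miR-448-3p: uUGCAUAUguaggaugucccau
miR-153-3p: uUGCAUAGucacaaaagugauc

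Their levels differed widely. miR-153-3p stood at 91.3 and 82.0 CPM (the deposited value divided by 10, which brings all libraries to the same total) in SCN, at 604 and 339 CPM in hypothalamus and at 515 and 473 CPM in cortex. miR-448-3p had 7.1 and 6.6 CPM in SCN, 11.8 and 9.4 CPM in hypothalamus, and 1.5 and 0.5 CPM in cortex.

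The hairpins of miR-1298 and miR-448, printed from RefSeq with the mature arms in capitals, are the pair for which both arms have a sequence and both were read in all 6 tissue libraries.
Mir1298: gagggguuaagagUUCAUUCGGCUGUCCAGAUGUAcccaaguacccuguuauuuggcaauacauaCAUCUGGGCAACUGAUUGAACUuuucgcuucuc
Mir448: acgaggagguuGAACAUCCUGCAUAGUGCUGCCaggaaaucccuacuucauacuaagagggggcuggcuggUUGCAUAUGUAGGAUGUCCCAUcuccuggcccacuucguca

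Levels within the group spanned several orders of magnitude in whole SCN. Over the 17 whole-SCN libraries (2 SCN, 11 of the time course and 4 at CT18), miR-1264-3p averaged 177 ± 40.1 CPM (SD) and ranked 143rd among 814 miRNAs. Next came miR-1298-3p at 44.6 ± 12.4 CPM, miR-1298-5p at 31.1 ± 8.15 CPM, miR-448-5p at 15.0 ± 5.06 CPM and miR-1264-5p at 11.9 ± 8.33 CPM. The others were near the limit of the data: miR-448-3p averaged 3.16 ± 2.85 CPM, miR-1912-3p 1.21 ± 0.968 CPM, miR-764-3p 0.441 ± 0.797 CPM and miR-764-5p 0.0353 ± 0.146 CPM. The ranges of neighbours in this order overlapped over the 17 libraries, except that the lowest miR-1264-3p value (70.8 CPM) was above the highest miR-1298-3p value (69.1 CPM). The most and the least abundant detected hairpins, miR-1264 and miR-764, were 48.1 and 39.7 kb from the gene's start, so position along the gene did not order the levels.

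**Figure D1:**
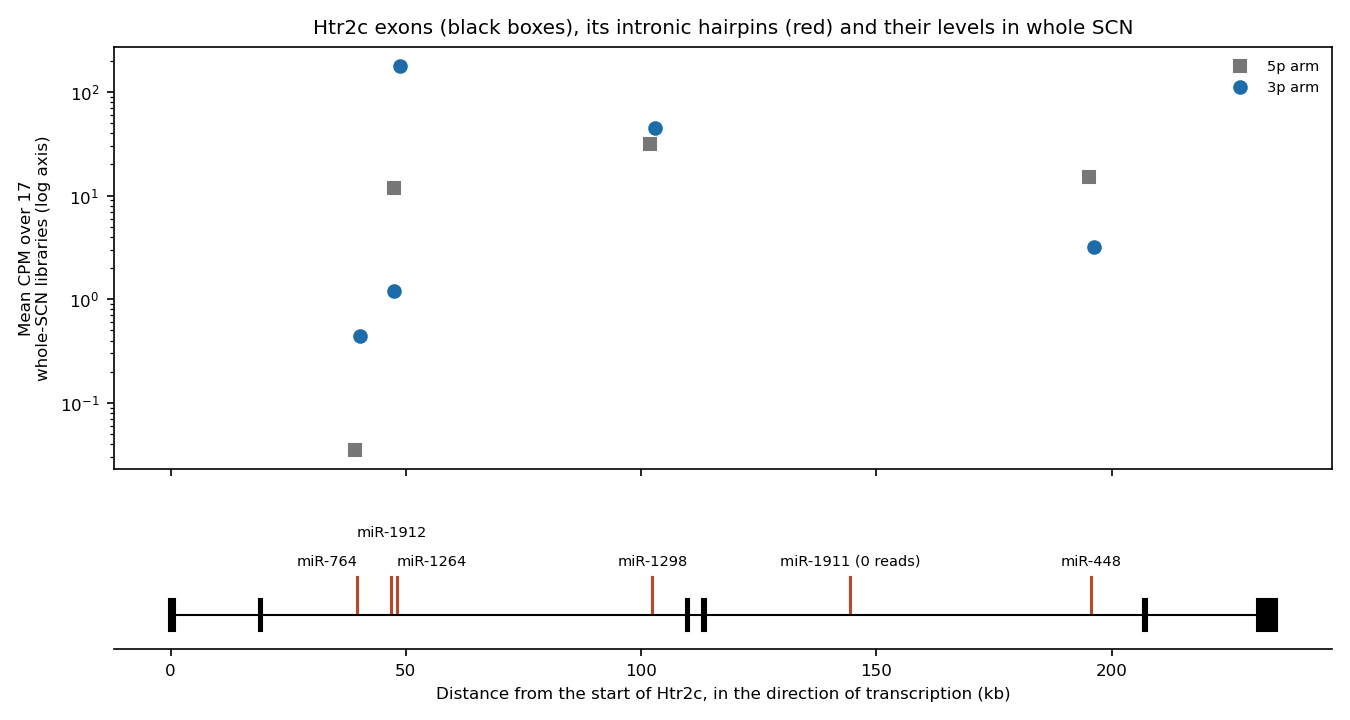
Exons of Htr2c-201 and the intronic hairpins against distance from the start of Htr2c (kb), and above them the mean level of each listed arm over the 17 whole-SCN libraries (CPM, log axis; squares 5p, circles 3p). miR-1264-3p stands highest at 177 CPM, and miR-764-5p lowest at 0.0353 CPM, although their hairpins are near each other.

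Depth set how far these low members could be followed. Libraries held 469808 to 5133920 reads assigned to miRNAs, and 3 reads, taken as the floor for a count of 0, stood for 0.585 to 6.39 CPM. The exact 95% upper limit of a 0 is somewhat higher, at 6.88 CPM in the first AVP library. In the neuron libraries this floor was 5.6 and 3.31 CPM for AVP, 1.07 and 1.08 CPM for VIP, and 6.39 and 6.16 CPM for CCK neurons. The floors and the intervals on read counts below cover counting error only, since the reads carry no molecular identifiers. A bulk library cannot tell fewer cells of a type from less RNA per cell, which holds for every tissue value below.

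SCN and hypothalamus stood far above cortex. The 9 members together summed to 323 and 294 CPM in SCN and to 437 and 464 CPM in hypothalamus, against 56.3 and 60.4 CPM in cortex. The labels of these libraries give no age and no time of day.

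miR-1264-3p, the leading member, had 199 and 167 CPM in SCN, 217 and 256 CPM in hypothalamus, and 20.6 and 20 CPM in cortex. Every SCN and hypothalamus library was above both cortex libraries, and SCN and hypothalamus did not overlap. Its mean in SCN was 9.03 times that in cortex (183 ± 22.4 against 20.3 ± 0.424 CPM, SD, n = 2 each), a log2 fold change of 3.16 ± 0.17 (SE) with a limma adjusted p of 2.2e-07. In hypothalamus the mean was 237 ± 27.9 CPM (SD, n = 2), 11.7 times cortex, with a log2 fold change of 3.53 ± 0.17 (SE) and a limma adjusted p of 2.9e-07.

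miR-448-5p had the largest estimated fold over cortex among the members tested. It had 14.7 and 16.4 CPM in SCN, 22.7 and 17.1 CPM in hypothalamus, and 0.7 and 0.5 CPM in cortex. The cortex values rest on 3 reads in all, so the fold is given as a ratio of pooled reads with its exact counting interval: 23.5 for SCN over cortex (95% interval 7.80 to 116) and 29.8 for hypothalamus over cortex (9.87 to 147). Those intervals include the miR-1264-3p folds of 9.03 and 11.7, so the order of these members is not settled. The limma adjusted p of miR-448-5p was 5.3e-05 for SCN against cortex and 7.4e-05 for hypothalamus against cortex. It reached the test's minimum only in SCN and hypothalamus, and so had to differ from cortex to be tested. Its partner arm miR-448-3p, too low in all 6 libraries but 1 to reach the test's minimum, had 40 reads in SCN and 48 in hypothalamus, against 5 in cortex.

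The miR-1298 arms were also higher, by smaller factors. miR-1298-3p had 53.9 and 63.6 CPM in SCN, 105 and 109 CPM in hypothalamus, and 18.2 and 27.2 CPM in cortex. miR-1298-5p had 32.9 and 26.2 CPM in SCN, 52.1 and 43.2 CPM in hypothalamus, and 10.3 and 5.1 CPM in cortex. For both arms the 3 tissues did not overlap, and hypothalamus was highest. For SCN against cortex the log2 fold change was 1.39 ± 0.22 (SE) for the 3p arm and 2.0 ± 0.35 for the 5p arm, with limma adjusted p of 0.00032 and 0.00055. For hypothalamus against cortex it was 2.26 ± 0.22 and 2.69 ± 0.35, with limma adjusted p of 2.8e-05 and 0.00018.

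miR-1264-5p, the lesser arm of the leading hairpin, had 14.2 and 12.8 CPM in SCN, 23.6 and 25.2 CPM in hypothalamus, and 3.5 and 5.6 CPM in cortex. It too was higher in SCN than in cortex (log2 fold change 1.58 ± 0.38, limma adjusted p = 0.0038) and higher in hypothalamus than in cortex (2.43 ± 0.38, limma adjusted p = 0.00052).

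In all, the 5 members that reached 10 CPM in 2 or more of the 6 tissue libraries were called higher in SCN than in cortex, where 80.2% of the 378 miRNAs tested were called in either direction and 41.3% were called higher (38.9% were lower, and 90.2% had groups that did not overlap). The same 5 were called higher in hypothalamus than in cortex, where 58.2% were called and 41.8% were called higher (16.4% were lower, and 83.9% had groups that did not overlap). Median log2 fold changes over these 5 were 2.0 for SCN and 2.69 for hypothalamus against cortex, beside 0.06 and 0.41 over all miRNAs tested. Median-ratio scaling moved the hypothalamus against cortex fold changes by 0.34 and the split of calls over all miRNAs to 109 higher and 98 lower (158 and 62 without it), and left the 5 member calls in place. The members' values do not stand for the whole group, since miR-1264-5p and miR-448-5p reached 10 CPM only in SCN and hypothalamus and so had to differ from cortex to be tested. The remaining 4 were not tested. miR-1912-3p had 7 reads in SCN, 11 in hypothalamus and 7 in cortex, and its mean of 1.20 CPM in SCN was below the 1.5 CPM of cortex. miR-764-3p had 0 reads in SCN, 7 in hypothalamus and 0 in cortex, and miR-764-5p had 1 read, in hypothalamus.

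Between SCN and hypothalamus only miR-1298-3p, lower in SCN, passed among the 5 members tested, with a log2 fold change of -0.87 ± 0.22 (SE) and a limma adjusted p of 0.0069, a mean of 58.8 ± 6.86 CPM in SCN against 107 ± 2.76 CPM in hypothalamus (SD, n = 2 each). DESeq2 on the recovered reads gave miR-1298-3p an adjusted p of 0.076. The other 4 gave limma adjusted p of 0.075 for miR-1264-3p (log2 fold change -0.37), 0.073 for miR-1264-5p (-0.85), 0.10 for miR-1298-5p (-0.69) and 0.60 for miR-448-5p (-0.34). A call was made for 70.9% of the 378 miRNAs in this comparison, 42.9% being lower and 28% higher in SCN, so 1 call among 5 is below the general rate. All 5 had SCN libraries below both hypothalamus libraries, while 87.3% of all miRNAs tested had groups that did not overlap. The median miRNA was itself 0.29 lower in SCN on the log2 scale, a shift that median-ratio scaling removes, and under that scaling calls over all miRNAs split into 128 higher and 131 lower (106 and 162 without it), while the call for miR-1298-3p held.

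**Figure D2:**
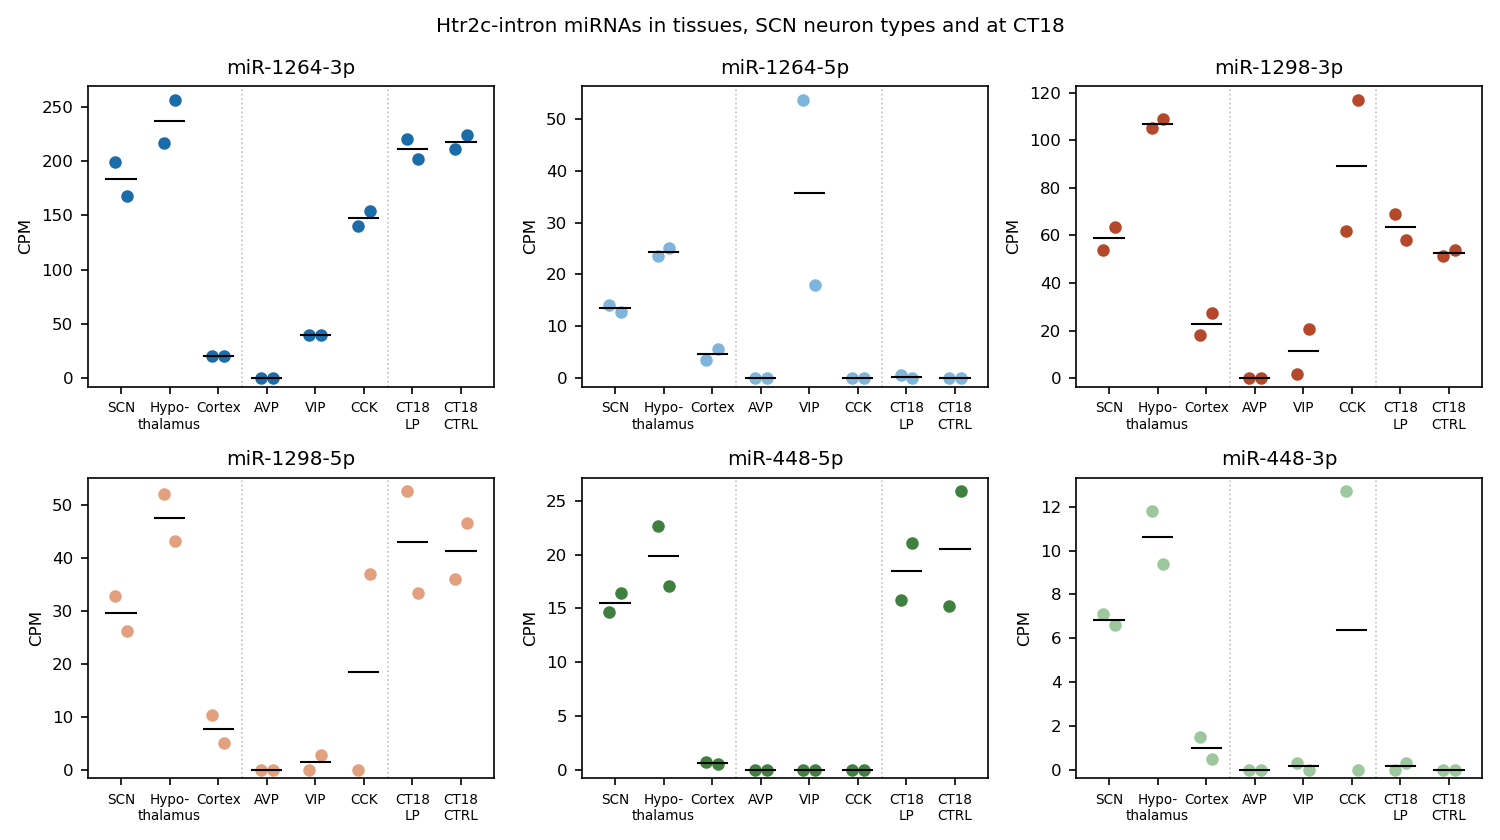
Level of 6 members (CPM, linear axis) in each library of the tissue, neuron and CT18 libraries; points are libraries, bars are group means, and dotted lines separate sets that were tested apart. miR-1264-3p lies at 167 to 256 CPM in SCN and hypothalamus against 20 and 20.6 CPM in cortex, and all 6 members are at 0 in AVP neurons.

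Other cell types' markers moved between the same tissues. The summed level of 9 listed choroid plexus and ciliated-cell miRNAs was 8709.7 to 8942.0 CPM in SCN and 7255.6 to 7457.2 CPM in hypothalamus, against 1179.5 to 1337.7 CPM in cortex. Of 6 tested, 6 were called higher in SCN than in cortex and 5 in hypothalamus than in cortex, and against hypothalamus 3 were higher and 1 was lower in SCN. miR-34b-5p was at 0 in cortex, miR-449a-5p in SCN, and miR-211-3p in all 3 tissues. Most of each sum was miR-204-5p, at 7045.3 to 7909.8 CPM in SCN and 5010.0 to 5458.2 CPM in hypothalamus. miR-34c-5p went the other way between these tissues, averaging 1043 ± 329 CPM in SCN and 1988 ± 457 CPM in hypothalamus (SD, n = 2 each). Choroid plexus is a tissue in which Htr2c is known to be abundant, and the part of that tissue in the members' difference was not tested.

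The other marker lists did not follow the same order. Neuronal miRNAs summed to 36323.2 to 41065.8 CPM in SCN, 55929.0 to 58710.6 CPM in hypothalamus and 158507.8 to 164644.4 CPM in cortex. They were thus highest in cortex, where the members' sums were lowest. Neuronal sums were also lower in SCN than in hypothalamus, where 1 of the 5 members tested was called lower in SCN. Of 8 tested, 8 were lower in SCN than in cortex, 8 lower in SCN than in hypothalamus and 6 lower in hypothalamus than in cortex. Oligodendrocyte miRNAs were called higher in hypothalamus than in cortex for 4 of 4 tested and lower in SCN than in hypothalamus for 4 of 4, while in SCN against cortex 1 was higher and 2 were lower. Vascular miRNAs were lower in SCN for 6 of 6 tested against either tissue, and in hypothalamus against cortex 1 of 6 was lower. Erythrocyte miRNAs had 1 higher and 3 lower of 4 in SCN against either tissue and 1 higher of 4 in hypothalamus against cortex. The part of these cell types in the members' values was not tested.

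miRNAs from introns of other receptor and channel genes, a list of 10 of which 9 were listed and 5 tested, were higher in SCN still. In SCN against cortex 5 of 5 were called higher, in hypothalamus against cortex 4 of 5, and in SCN against hypothalamus 4 of 5. In that last comparison no Htr2c-intron member was called higher. miR-346-5p, from the glutamate receptor delta gene Grid1, averaged 4751 ± 38 CPM in SCN, 1335 ± 67.5 CPM in hypothalamus and 562 ± 49.5 CPM in cortex (SD, n = 2 each), with limma adjusted p of 2.6e-06 for SCN against hypothalamus. miR-224-5p, from the GABA-A receptor gene Gabre, which like Htr2c is X-linked, averaged 65.8 ± 11.9 CPM in SCN, 27 ± 3.04 CPM in hypothalamus and 3.65 ± 1.34 CPM in cortex, with a limma adjusted p of 0.0072 for SCN against hypothalamus. miR-204-5p, from the channel gene Trpm3, averaged 7478 ± 611 CPM in SCN, 5234 ± 317 CPM in hypothalamus and 1045 ± 79.8 CPM in cortex (limma adjusted p = 0.0021, SCN against hypothalamus), and miR-211-5p, from Trpm1, averaged 23.0 ± 2.97, 5.45 ± 3.32 and 4.30 ± 3.96 CPM in SCN, hypothalamus and cortex (limma adjusted p = 0.027). The miR-204 and miR-211 arms are on the choroid plexus list as well.

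The relative weight of the hairpins differed between tissues. miR-1264 gave 66.0% and 61.2% of the group's reads in SCN and 55.0% and 60.7% in hypothalamus, against 42.7% and 42.4% in cortex. miR-1298 gave 26.9% and 30.5% in SCN and 36.0% and 32.8% in hypothalamus, against 50.3% and 53.4% in cortex. In cortex the intervals are wide because only 143 and 118 reads came from the group there: the exact 95% interval of the miR-1264 share was 34.4% to 51.2% in the first cortex library and 33.3% to 51.8% in the other. Those intervals lie below the shares of all 4 SCN and hypothalamus libraries.

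**Figure D3:**
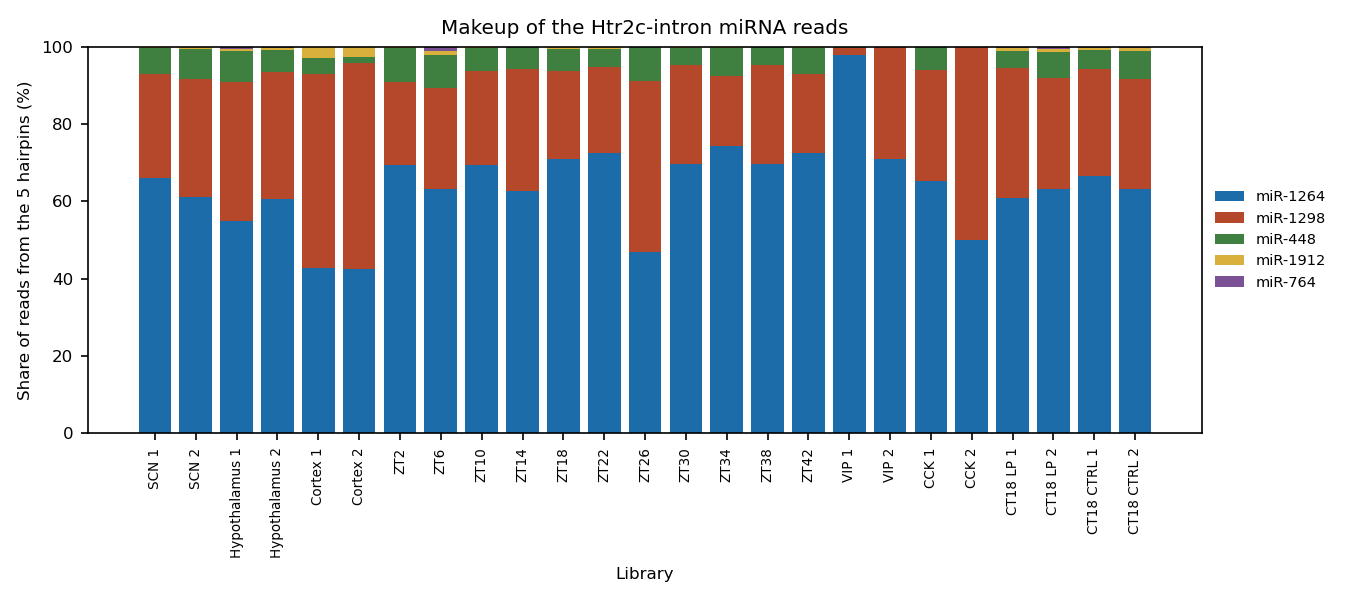
Share of the group's reads from each of its 5 detected hairpins (%), in each library that has any; both AVP libraries have none. miR-1264 makes up 61.2% and 66.0% in SCN and 42.4% and 42.7% in cortex, and ZT26 stands out in the time course with 47.0%.

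Neuron libraries of the SCN split sharply. AVP neurons had 0 reads of all 9 members in both libraries. VIP neurons summed to 95.2 and 81.3 CPM and CCK neurons to 215 and 308 CPM. Sums in the 17 whole-SCN libraries ran from 166 to 362 CPM, a range that holds both CCK values and lies above both VIP values; no test was made between these sets.

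miR-1264-3p had 0 and 0 CPM in AVP neurons, 39.5 and 39.8 CPM in VIP neurons and 141 and 154 CPM in CCK neurons. The 3 types did not overlap. Its level in AVP neurons was at least 19.1-fold lower than in VIP neurons and at least 70.8-fold lower than in CCK neurons, with AVP set at 3 reads over the group, and the limma adjusted p was 0.0078 and 0.0068. VIP neurons had 0.269 times the level of CCK neurons (39.6 ± 0.212 against 147 ± 9.48 CPM, SD, n = 2 each), which did not pass (limma adjusted p = 0.30).

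miR-1264-5p had 0 and 0 CPM in AVP neurons, 53.7 and 17.9 CPM in VIP neurons and 0 and 0 CPM in CCK neurons. It was therefore read in VIP neurons alone among the 3 types, at 151 and 50 reads, and reached the test's minimum of 10 CPM in 2 libraries only through VIP, so it had to differ to be tested. It was at least 17.2-fold lower in AVP than in VIP neurons (limma adjusted p = 0.0058) and at least 11.4-fold higher in VIP than in CCK neurons (limma adjusted p = 0.0056). Neither call was made by edgeR or DESeq2 on the recovered reads: adjusted p was 0.093 and 0.12 for AVP against VIP, and 0.13 and 0.19 for VIP against CCK.

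miR-1298-3p had 0 and 0 CPM in AVP neurons, 1.7 and 20.8 CPM in VIP neurons and 61.7 and 117 CPM in CCK neurons. Its replicates in VIP neurons were far apart. It was at least 43.0-fold lower in AVP than in CCK neurons (limma adjusted p = 0.021). That call was lost with edgeR (adjusted p = 0.11), under quantile normalization (limma adjusted p = 0.092) and without AVP replicate 1 (limma adjusted p = 0.074). AVP against VIP gave a bound of at least 5.41-fold lower and a limma adjusted p of 0.054, and VIP against CCK a ratio of 0.126 with a limma adjusted p of 0.17. The VIP library at 1.7 CPM lay below the AVP floors of 5.6 and 3.31 CPM. The AVP against VIP bound on the means thus rests on the other VIP library.

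The rest were sparse in neurons. miR-1298-5p was read in 1 VIP library (8 reads, 2.8 CPM) and in 1 CCK library (18 reads, 36.9 CPM). miR-448-3p had 1 read in VIP neurons and 6 reads, all in 1 library, in CCK neurons. miR-448-5p, both arms of miR-764 and miR-1912-3p had 0 reads in all 6 neuron libraries. Being listed in 1 library of a pair is common here, as it held for 30.4% of the miRNAs listed for AVP neurons, 28.3% of those for VIP neurons and 29.8% of those for CCK neurons.

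Set against all miRNAs, the calls were 2 of 3 tested members lower in AVP than in VIP neurons, where 32.8% of 305 miRNAs were called, 14.8% lower and 18% higher, and 64.6% had groups that did not overlap. They were 2 of 3 lower in AVP than in CCK neurons, where 16.7% were called, 14.1% lower and 2.62% higher, and 58% did not overlap. The last comparison had 1 of 3 higher in VIP than in CCK neurons, where 29.8% were called, 8.2% higher and 21.6% lower, and 62.6% did not overlap. These counts do not support a difference by themselves: all 3 tested members reached 10 CPM only in VIP or CCK libraries, and miR-1264-5p, which is 1 of the AVP against VIP calls and the VIP against CCK call, only in VIP. Median-ratio scaling shifted the fold changes in the 3 neuron comparisons, where the deposited scaling minus median-ratio scaling came to 0.64 (AVP against VIP), -0.17 (AVP against CCK) and -0.82 (VIP against CCK) on the log2 scale. With it the split of calls over all miRNAs was 35 higher and 62 lower in AVP against VIP (55 and 45 without it), 15 and 43 in AVP against CCK (8 and 43), and 38 and 31 in VIP against CCK (25 and 66); no member turned direction. The 6 members not tested include all that were at 0 throughout. Leaving out either CCK library left 0 of all miRNAs called in AVP against CCK, both members included, with limma adjusted p of 0.099 and 0.11 for miR-1264-3p, and leaving out either CCK library removed the VIP against CCK call of miR-1264-5p (adjusted p of 0.086 and 0.075, limma).

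Some other miRNAs read in VIP and CCK neurons were also absent from AVP neurons, though they were a minority. Of 204 miRNAs listed in all 4 VIP and CCK libraries, 17 (8.33%) had 0 reads in both AVP libraries, miR-1264-3p and miR-1298-3p among them. Of the 81 whose mean in those 4 libraries was 20 to 200 CPM, 14 (17.3%) were at 0 in both. Neuronal miRNAs summed lower in AVP libraries as well, at 3019.9 to 4122.7 CPM. Their sums were 13362.3 to 18185.1 CPM in VIP and 10792.0 to 12595.8 CPM in CCK neurons. Most of each sum was miR-124-3p, and 3 of 8 were at 0 in both AVP libraries. Of the 8 tested, 1 was called higher and 3 lower in AVP than in VIP neurons. Against CCK neurons 0 were called higher and 3 lower in AVP. miR-9-5p averaged 343 CPM in AVP, 24.7 CPM in VIP and 164 CPM in CCK neurons. Oligodendrocyte miRNAs summed to 45.1 to 134.3 CPM in AVP, 756.1 to 1249.1 CPM in VIP and 630.6 to 741.5 CPM in CCK neurons, also lowest in AVP; all of it was miR-338, as the 3 listed arms of the miR-219 family were at 0 in all 6 neuron libraries. Vascular miRNAs summed to 3.3 to 70.8 CPM in AVP, 59.5 to 81.3 CPM in VIP and 138.3 to 176.5 CPM in CCK neurons. The erythrocyte sum went the other way, at 2106.8 to 2164.0 CPM in AVP neurons, but all of it was miR-486-5p. The same sum was 943.1 to 1169.7 CPM in VIP and 980.1 to 1014.7 CPM in CCK neurons. miR-144-3p, miR-144-5p and miR-451a were at 0 in all AVP and CCK libraries, and miR-451a had 12.5 to 16.7 CPM in VIP neurons. Of 2 tested, 1 was called higher and 1 lower in AVP than in VIP, and 1 higher in AVP than in CCK neurons. Choroid plexus and ciliated-cell miRNAs summed to 83.8 to 290.0 CPM in AVP, 7635.1 to 9571.5 CPM in VIP and 1557.4 to 1914.4 CPM in CCK neurons, with miR-204-5p at 7563.3 to 9453.0 CPM of it in VIP neurons. The part of these levels in the members' values was not tested.

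The other receptor- and channel-intron miRNAs did not follow the same order. miR-224-5p was called higher in AVP than in VIP neurons (390 ± 185 against 20.9 ± 4.17 CPM, SD, n = 2 each, limma adjusted p = 0.0086) and lower in VIP than in CCK neurons (204 ± 61.4 CPM in CCK, limma adjusted p = 0.022). miR-204-5p was called lower in AVP than in VIP neurons (79 ± 3.68 against 8508 ± 1336 CPM, limma adjusted p = 0.00046) and lower in AVP than in CCK neurons (1451 ± 277 CPM in CCK, limma adjusted p = 0.0041). It was also higher in VIP than in CCK neurons (limma adjusted p = 0.0044). miR-346-5p (0 and 308 CPM in AVP neurons) and miR-204-3p passed in no neuron comparison. Of the 4 tested, 1 was higher and 1 lower in AVP against VIP, 1 lower in AVP against CCK, and 1 higher and 1 lower in VIP against CCK neurons.

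Along the time course no 24 h rhythm was called for any member. miR-1264-3p had, from ZT2 to ZT42, 204, 159, 126, 125, 174, 193, 70.8, 186, 182, 157 and 208 CPM. The value at ZT26 was lowest, and the other 10 times ran from 125 to 208 CPM. miR-1298-3p had 36.8, 46.5, 26.9, 32.4, 35.4, 38.8, 45.6, 47.5, 29.2, 32.5 and 36.7 CPM at the same times, with ZT26 among its higher values. miR-1298-5p stayed between 20.1 (ZT34) and 34.2 CPM (ZT14), miR-1264-5p between 7.3 (ZT14) and 26.8 CPM (ZT6), and miR-448-5p between 7.6 (ZT30) and 20.3 CPM (ZT6).

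A cosine of 24 h period gave a limma adjusted p of 0.95 for each of the 5 tested members. Fitted amplitudes (mean to peak, log2 scale) were 0.13 for miR-1264-3p, 0.23 for miR-1264-5p, 0.26 for miR-1298-3p, 0.08 for miR-1298-5p and 0.16 for miR-448-5p. Over all 357 miRNAs tested the limma fit called 0 (0%), with 6 (1.68%) at an unadjusted p under 0.05, none of them a member, and edgeR and DESeq2 on the recovered reads called 0 as well. With 1 library per time there is no replicate at any single time.

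The miR-1298 arms were among the steadier miRNAs of the course. The coefficient of variation over the 11 times was 14.3% for miR-1298-5p and 18.8% for miR-1298-3p, below the median of 31.2% over the 357 miRNAs; 340 and 301 of them varied more. miR-1264-3p had 25.4%, miR-448-5p 35.1% and miR-1264-5p 38.9%, of which the first also lay below the median. Counting error alone would give about 10.2% for miR-1298-5p and 4.18% for miR-1264-3p, on the reads that each had.

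The ZT26 library set the hairpins apart from each other. There miR-1264-3p was at 0.397 and miR-1264-5p at 0.461 of their median over the other times, whereas miR-1298-3p was at 1.26, miR-1298-5p at 1.02 and miR-448-5p at 0.831. The median of that ratio over all 357 miRNAs was 0.776, and 43 of them had a lower ratio than miR-1264-3p. miR-1264 accordingly gave 47.0% of the group's reads at ZT26 (exact 95% interval 43.6% to 50.4%), against 62.8% to 74.3% at the other 10 times. ZT26 was also the deepest library of the series, with 5133920 reads, and whether the library or the time accounts for the value cannot be told apart.

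**Figure D4:**
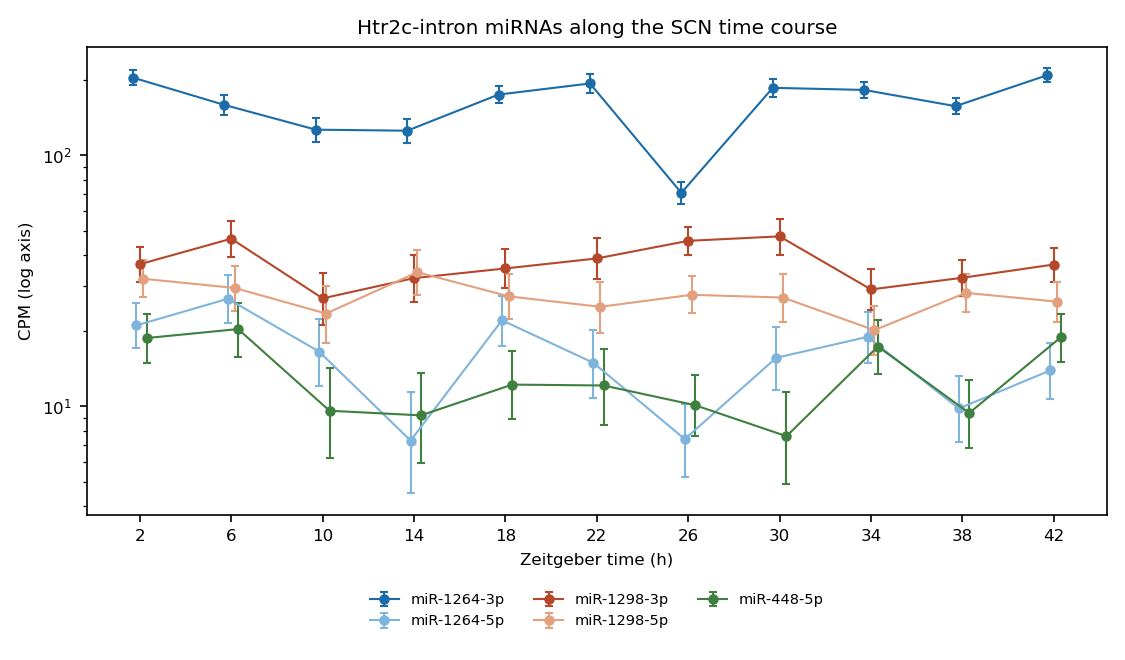
Level (CPM, log axis) of 5 members in the 11 SCN libraries against zeitgeber time (h), with exact 95% counting intervals and points shifted slightly sideways to keep them apart. miR-1264-3p drops to 70.8 CPM at ZT26 and is 125 to 208 CPM elsewhere, while miR-1298-3p and miR-1298-5p show no such drop.

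Members did not move together over the course at a level that passed. Of 10 pairs among the 5 tested members, correlated on the log2 scale over 11 libraries, the smallest adjusted permutation p was 0.25. The arms of miR-1264 gave r = 0.63 (permutation p = 0.048, adjusted p = 0.25; Spearman's rho 0.35, permutation p = 0.28, adjusted p = 0.76), and r fell to 0.02 without ZT14 and ZT26, so the relation rests on those libraries. The arms of miR-1298 gave r = 0.37 (permutation p = 0.27, adjusted p = 0.68; rho 0.26, permutation p = 0.44, adjusted p = 0.76), and r was 0.29 without ZT10 and ZT30. Between hairpins, miR-1264-5p and miR-448-5p gave r = 0.60 (permutation p = 0.05, adjusted p = 0.25; rho 0.59, permutation p = 0.061, adjusted p = 0.61), and r was 0.54 without ZT14 and ZT26.

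At CT18 no member tested differed between LP and CTRL libraries beyond the test's threshold. miR-1264-3p had 220 and 202 CPM in LP and 211 and 224 CPM in CTRL, and the groups overlapped. The log2 fold change was -0.04 (95% interval -0.55 to 0.47, limma adjusted p = 0.99). For miR-1298-3p, with 69.1 and 58.2 CPM in LP and 51.2 and 53.8 CPM in CTRL, the groups did not overlap, as for 18.6% of all 317 miRNAs tested, and the log2 fold change was 0.27 (-0.35 to 0.89, limma adjusted p = 0.99).

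miR-1298-5p had 52.6 and 33.3 CPM in LP and 36.0 and 46.6 CPM in CTRL (log2 fold change 0.03, 95% interval -0.79 to 0.85), and its direction turns under other scalings. miR-448-5p had 15.8 and 21.1 CPM in LP and 15.2 and 25.9 CPM in CTRL (log2 fold change -0.12, 95% interval -1.15 to 0.91). In both cases LP and CTRL overlapped. The limma fit called 0 of 317 miRNAs (0%), with 1 at an unadjusted p under 0.05 and none of them a member, and edgeR and DESeq2 on the recovered reads called 0 too. Of the receptor- and channel-intron miRNAs 0 of 4 tested passed, and marker lists gave 0 calls of 5 choroid plexus, 4 oligodendrocyte, 5 vascular, 3 erythrocyte and 7 neuronal miRNAs.

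The minor arms of miR-1264 and miR-448 were nearly missing from the CT18 libraries, while miR-1298-5p had 33.3 to 52.6 CPM there. miR-1264-5p had 1 read in LP and 0 in CTRL, beside 982 and 807 reads of its 3p arm, and miR-448-3p had 1 read in LP and 0 in CTRL. In the other 13 whole-SCN libraries both were always listed, at 7.3 to 26.8 CPM and at 1.3 to 10 CPM. Of 440 miRNAs listed in all those 13 libraries, 8 (1.82%) had at most 1 read over the 4 CT18 libraries, and these arms are a pair among those 8. The CT18 libraries form a set of their own, so time, handling and library preparation cannot be told apart here. The lowest members were present in the same libraries: miR-764-3p had 1.1 and 2.0 CPM in LP and 0.5 and 1.5 CPM in CTRL, and miR-1912-3p had 2.8 and 2.0 CPM in LP and 2.2 and 2.5 CPM in CTRL.

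Arm use was distinct for each hairpin. Of miR-1264 reads, the 3p arm took 93.3% and 92.9% in SCN, 90.2% and 91.0% in hypothalamus, 85.2% and 78.0% in cortex, and 85.5% to 94.4% (median 90.6%) along the time course. It took 99.7% to 100% at CT18, 100% of 66 and 75 reads in CCK neurons, and 42.4% and 68.9% in VIP neurons. The VIP share of 42.4% lay below the exact 95% interval of every tissue and time-course library, and that of 68.9% below all but the interval of the second cortex library (64.0% to 88.5%).

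miR-1298 was split more evenly. Its 3p arm took 62.1% and 70.8% in SCN, 66.9% and 71.6% in hypothalamus, 63.9% and 84.1% in cortex, 48.6% to 63.7% along the time course and 53.6% to 63.6% at CT18. Here CT18 and the time course overlapped, unlike for miR-1264. Neuron libraries ran from 76.0% to 100% on 5 to 75 reads each.

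miR-448 was cut the other way, with the 5p arm in the majority. The 3p arm took 32.7% and 28.9% in SCN, 34.2% and 35.6% in hypothalamus, 6.59% to 38.5% along the time course and 0% to 1.59% at CT18. In cortex its share came from 6 and 2 reads, and in neurons from 1 and 6, too few to read. The upper exact 95% limits at CT18 were 12.3% and 8.53% in LP and 12.8% and 7.11% in CTRL, below the values of all 4 SCN and hypothalamus libraries. They were not all below the time course, where the share was 6.59% at ZT42, 10.4% at ZT34 and 12.5% at ZT22.

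**Figure D5:**
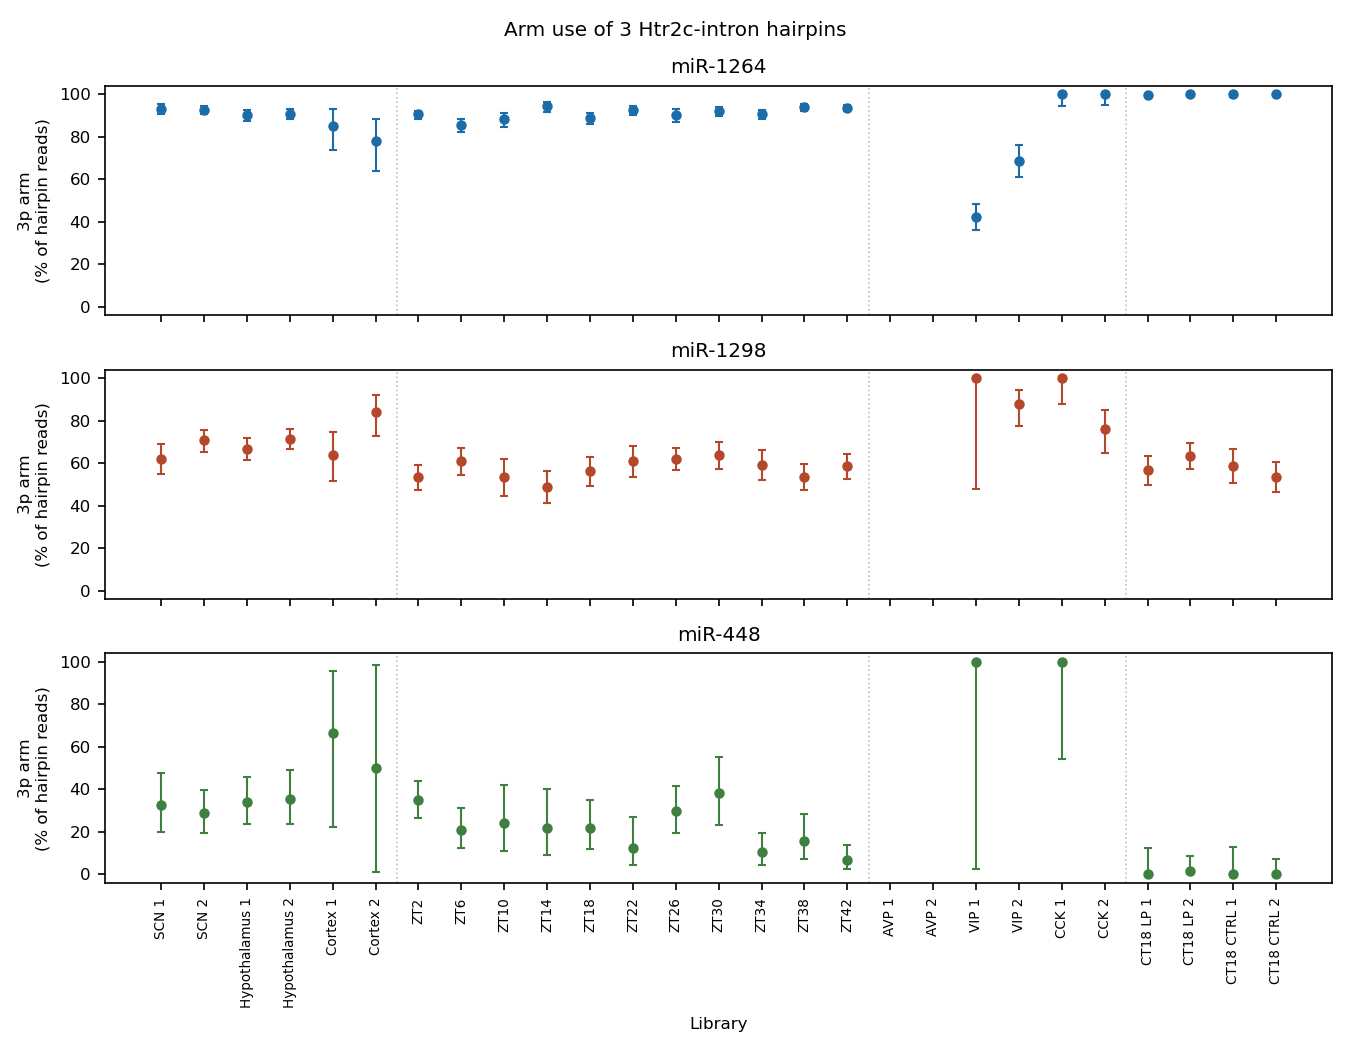
Share of each hairpin's reads on its 3p arm (%), by library, with exact 95% binomial intervals; AVP neurons have no reads, and dotted lines separate tissue, time course, neuron and CT18 libraries. miR-1264 lies at 78.0% to 94.4% in tissue and time-course libraries, at 42.4% and 68.9% in VIP neurons and near 100% at CT18, where miR-448 is at 0% to 1.59%.

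Across the whole series miR-1264-3p was most like miR-672-5p, with a Pearson r of log2(CPM + 1) of 0.941 (Spearman's rho 0.639) over 27 libraries, among 332 other miRNAs averaging at least 10 CPM. miR-362-5p (0.851, rho 0.712), miR-365-3p (0.842, rho 0.487), miR-495-3p (0.842, rho 0.718) and miR-1224-5p (0.840, rho 0.281) followed. miR-1298-3p, at 0.891, was closer than all but 1 of those candidates, but the members differed widely. miR-1298-5p was at 0.773 with 14 candidates above it and miR-448-5p at 0.709 with 30. miR-448-3p was at 0.431 with 129 above it, and the partner arm miR-1264-5p at 0.322 with 173. The points include both AVP libraries, with 0 reads of miR-1264-3p. Within the 17 whole-SCN libraries the order was another one. There miR-410-3p (0.867), miR-872-3p (0.832), miR-1251-5p (0.822), miR-138-5p (0.812) and miR-496a-3p (0.811) led among 331 candidates. miR-1298-3p was at 0.314 with 160 candidates above it, miR-448-5p at 0.551 with 69, and miR-1264-5p at -0.287 with 260. These correlations are descriptions with no test, and the points share depth and scaling within each library.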

How the data were processed

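RNA was isolated with Trizol from tissue snap-frozen after removal, and sequenced on Illumina libraries, per the labels' protocols. Bowtie and GRCm38 (mm10) are named, with no version or role, per the submitters' processing notes. For each mature miRNA the authors deposited a normalized signal, scaled to about 1e+07 per library and rounded down, as the values themselves show (totals 10004170 to 10021510). Each library had its own step, of which 100% of its values were whole multiples after that rounding, so whole reads were recovered. CPM is the deposited value divided by 10, and a miRNA not listed was taken as 0.

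Samples were grouped by the labels alone. limma-trend (limma 3.58.1, R 4.3.3) was run on log2(value + 1) with 1 fit each for tissues, neuron types, CT18 and the time course (cosine and sine of 24 h). A miRNA was tested if its value reached 100 (10 CPM) in 2 or more libraries of the fit (3 in the time course), two-sided, with Benjamini-Hochberg adjustment over all those tested and a threshold of 0.05. A fold change on this scale understates the change of low miRNAs read in both groups. Where a group had 0 reads, the added 1 (0.1 CPM) sets the fold change, which can overstate the change. For miR-1264-3p in AVP against CCK neurons the log2 fold change was -10.52, while the reads gave a bound of at least 70.8-fold. edgeR 4.0.16 (quasi-likelihood, TMM) and DESeq2 1.42.0 on the recovered reads, other scalings, pseudocounts and filters, a replicate block and leaving out each library were alternatives. The fits were tested on simulated data. Intervals are exact, at 95%.

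The members and the lists (other receptor- and channel-intron miRNAs, and choroid plexus and ciliated-cell, oligodendrocyte, vascular, erythrocyte and neuronal markers) were chosen with earlier results of these data known. Named beyond the members were the list's tested miRNAs with the 4 smallest p and the 5 miRNAs most like miR-1264-3p; miR-153-3p was named for its seed. Depth, as recovered reads, was 469808 to 5133920 per library.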

Additional observations from a re-analysis of the deposited data

How the results depend on the processing

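With 2 libraries per group, calls near the threshold move easily, and members under 10 CPM are limited by depth. For SCN against hypothalamus 1 member was called, with 0 by DESeq2, 2 at a pseudocount of 10, 3 at 100, 2 with no filter, 3 with only those 2 groups fitted, and 1 to 2 when leaving out 1 library. Against cortex 5 were called in SCN and in hypothalamus under every setting that tested the same 5; a filter at 500 left 2 tested and 2 called in each, and with no filter 6 and 7 were called of 9. For AVP against VIP neurons 2 were called, with 1 by edgeR, 1 by DESeq2, 3 under median-ratio scaling and 1 to 2 when leaving out 1 library. For AVP against CCK neurons 2 were called, with 1 by edgeR, 1 under quantile normalization and 0 to 2 when leaving out 1 library. For VIP against CCK neurons 1 was called, with 0 by edgeR, 0 by DESeq2, 0 with the filter at 500 and 0 when leaving out any library of the pair; without a VIP library miR-1264-5p falls under the minimum and is not tested. Apart from the filters, which change what is tested, the cause was not tested. At CT18 and along the time course 0 members were called under every alternative run, although leaving out LP replicate 2 gave 21 calls over all miRNAs, against 0 with it. Calls over all miRNAs in AVP against CCK neurons were 51, with 28 by edgeR and 0 to 69 when leaving out 1 library; in VIP against CCK neurons they were 91, with 35 by edgeR, 56 under quantile normalization and 1 to 65 when leaving out 1 library. Directions turned only at CT18, among uncalled values: miR-1298-5p was -0.03 by edgeR, -0.04 by DESeq2, -0.05 under median-ratio scaling and -0.11 under quantile normalization, and -0.30 to 0.36 when leaving out 1 library; miR-448-5p was -0.50 to 0.26 when leaving out 1 library, and miR-1264-3p 0.02 without LP replicate 2.

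Groups share replicate numbers, but same-numbered libraries deviated together with r of only -0.089 to 0.25, so the numbers are not taken as pairs. A replicate block gave 1, 5, 5, 2, 2, 1 and 0 member calls in the 7 comparisons, as without it, and moved the calls over all miRNAs in VIP against CCK neurons to 46, against 91.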
